A study of Mus musculus with 3 samples.

Results

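The mouse genes named Zfp and a number encode zinc finger proteins, and their exonic and intronic RNA was followed in cultured interneurons after depolarization. Of 260 such genes in the tables, with Zfp36 left out, 207 were selected on measured values, 20 or more exonic reads in 1 or more of 3 libraries, and form the group described here. The tables hold 25562 genes, and 10311 of them have the same minimum of reads. The members were thus chosen by their exonic reads, so the level of a member above the minimum is a description and not a finding.

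The cells were neurons of the medial ganglionic eminence (MGE), the embryonic source of many cortical inhibitory interneurons, from C57Bl/6 mice at embryonic day 14, kept for 10 days in culture. The sample titles carry the letters WT, which the labels use elsewhere for the sequencing protocol and do not spell out as a genotype. All cultures were silenced overnight from day 9 with tetrodotoxin (TTX), which blocks sodium channels, and AP-5, which blocks NMDA receptors. They were then held in 55 mM extracellular KCl for 1 or 6 h, and the unstimulated culture is the 0 h sample. Total RNA without ribosomal RNA was sequenced strand by strand, in 1 library for each time. The labels do not say how many embryos or dishes went into a library.

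In a C2H2 zinc finger, cysteine and histidine residues hold a zinc ion, and arrays of such fingers read DNA sequence. Many mammalian C2H2 proteins also carry a KRAB domain, which recruits the corepressor Trim28 and, through it, enzymes that lay down repressive chromatin, often over transposable elements. KRAB zinc finger genes multiplied by local duplication, so many lie in clusters of near relatives. Other members are activators or repressors of single-copy genes, and a few bear the old name without such fingers.

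Sense exonic reads numbered 2189394, 2457167 and 2480579 at 0, 1 and 6 h, and sense intronic reads 2123187, 1789710 and 2095060. Reads were scaled per library by the TMM method, separately for exons and introns, and scaled values are given as reads per 1000000 scaled reads (RPM) or, divided also by the exon length in kilobases, as RPKM. With 1 library per time there was no replicate, so no test between times could be run. A gene was called higher with a scaled ratio of 2 or more and lower with one of 0.5 or less, provided that the exact 95% interval of the ratio left out 1 and that 20 or more reads were counted in either library. This is the 2-fold limit used below. The interval covers counting error only, not the spread between cultures or PCR copies. The 10 MGE interneuron markers summed to 3927, 3844 and 5493 RPM at 0, 1 and 6 h, all 10 above the read minimum. The 6 astrocyte and radial glia markers summed to 1935, 2059 and 2215 RPM, while no marker of excitatory neurons or microglia reached the minimum. The 6 oligodendrocyte lineage markers, 4 of them above the minimum, summed to 127, 131 and 164 RPM. The 3 markers of dividing cells, 2 of them above it, summed to 98.6, 93.9 and 78.9 RPM. The part of glia and of dividing cells in the results below was not tested. Fewer cells of a type and less RNA per cell cannot be told apart in these samples.

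Promoters of 4 members past the 2-fold limit at 6 h over 0 h are shown as examples. Zfp143 and Zfp189 are on the higher side, and Zfp786 and Zfp809 on the lower. By distance of the interval from 1, Zfp143 and Zfp189 ranked 2 and 4 among the higher members. Zfp533 and Zfp516, which ranked 1 and 3, are not shown. Zfp786 and Zfp809 ranked 1 and 2 among the lower members. The sequences are from RefSeq on GRCm38.p6, 5′ to 3′ on the strand of the gene, with 250 bases before the start site and 50 after it. The capitals mark the core of the cAMP response element, TGACG, or its reverse complement CGTCA, found by searching both strands. The Zfp143 window is chr7:110061452-110061751 on the + strand, that of Zfp189 is chr4:49520926-49521225 on the + strand, that of Zfp786 is chr6:47830456-47830755 on the - strand, and that of Zfp809 is chr9:22225453-22225752 on the + strand.
Zfp143: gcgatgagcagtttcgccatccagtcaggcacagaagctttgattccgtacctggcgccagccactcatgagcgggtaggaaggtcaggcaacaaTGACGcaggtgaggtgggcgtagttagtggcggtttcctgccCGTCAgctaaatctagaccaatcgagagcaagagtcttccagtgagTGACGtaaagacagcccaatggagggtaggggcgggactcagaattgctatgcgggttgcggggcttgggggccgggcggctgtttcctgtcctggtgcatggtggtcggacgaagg
Zfp189: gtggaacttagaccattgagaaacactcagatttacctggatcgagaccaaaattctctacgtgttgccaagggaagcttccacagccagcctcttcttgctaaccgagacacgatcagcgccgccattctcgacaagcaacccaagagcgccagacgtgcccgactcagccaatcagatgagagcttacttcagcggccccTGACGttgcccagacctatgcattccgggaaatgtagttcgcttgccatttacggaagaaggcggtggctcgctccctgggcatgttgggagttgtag
Zfp786: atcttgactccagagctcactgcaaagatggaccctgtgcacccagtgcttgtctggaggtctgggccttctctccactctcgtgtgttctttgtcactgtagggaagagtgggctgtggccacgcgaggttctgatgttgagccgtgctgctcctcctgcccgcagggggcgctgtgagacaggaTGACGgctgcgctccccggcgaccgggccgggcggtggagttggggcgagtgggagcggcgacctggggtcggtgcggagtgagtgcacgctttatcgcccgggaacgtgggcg
Zfp809: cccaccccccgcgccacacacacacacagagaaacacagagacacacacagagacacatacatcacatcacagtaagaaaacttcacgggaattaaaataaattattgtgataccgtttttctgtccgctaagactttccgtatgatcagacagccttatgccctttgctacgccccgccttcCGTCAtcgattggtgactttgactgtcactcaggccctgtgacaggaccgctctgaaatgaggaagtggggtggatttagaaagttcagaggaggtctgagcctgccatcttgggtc
The Zfp143 window holds 3 core elements, at -155, -113 and -67 from the start site, and the other windows hold 1 each. The same letters thus occur in genes on the higher and on the lower side. Zfp786 and Zfp809 had the minimum of reads at 0 h only, and so entered through the library where they are high. Over all higher members in the promoter table, 5 of 8 promoters (4 genes) held the core element. Over the lower members it was 10 of 21 (17 genes), against 20.8% of all promoters. These shares were not tested. The table holds 2 start sites each for Zfp143 and Zfp809, of which 1 is shown.

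Over the group, 167 of 207 members matched the promoter table, with 213 start sites. The core element TGACG lay in 68 of these promoters, or 31.9%, against 20.8% of all 32851 promoters of the same length. The full element TGACGTCA, which contains the core element on both strands, was in 2.35% of the members' promoters and 1.79% of all promoters. The AP-1 site TGACTCA was in 3.76% of the members' promoters and 5.2% of all. Member promoters also held a median of 18 CpG pairs, against 7 in all promoters, and the core element itself contains a CpG. Its higher share was not examined apart from this base composition.

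By protein sequence, 57 members had C2H2 fingers and the A box of a KRAB domain, 140 had C2H2 fingers without the A-box pattern, and 10 had neither. The classes come from translated GENCODE M21 coding sequences and a strict pattern: the known KRAB proteins Zfp57 and Zfp445 carry a variant of the box and stand in the class without it. The 10 without fingers of this pattern include genes that have since been renamed, such as Zfp294 (now Ltn1, a ubiquitin ligase of ribosome quality control), Zfp364 (Rnf115) and Zfp650 (Ubr3), both ubiquitin ligases, and Zfp469 (Tnrc18). In all, 22 members now carry another symbol. The 57 members with the KRAB pattern were lower in level, with a median of 6.46 RPKM, than the 140 without it at 10.2 RPKM, and the median over all genes with the minimum was 15.3 RPKM.

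**Figure D1:**
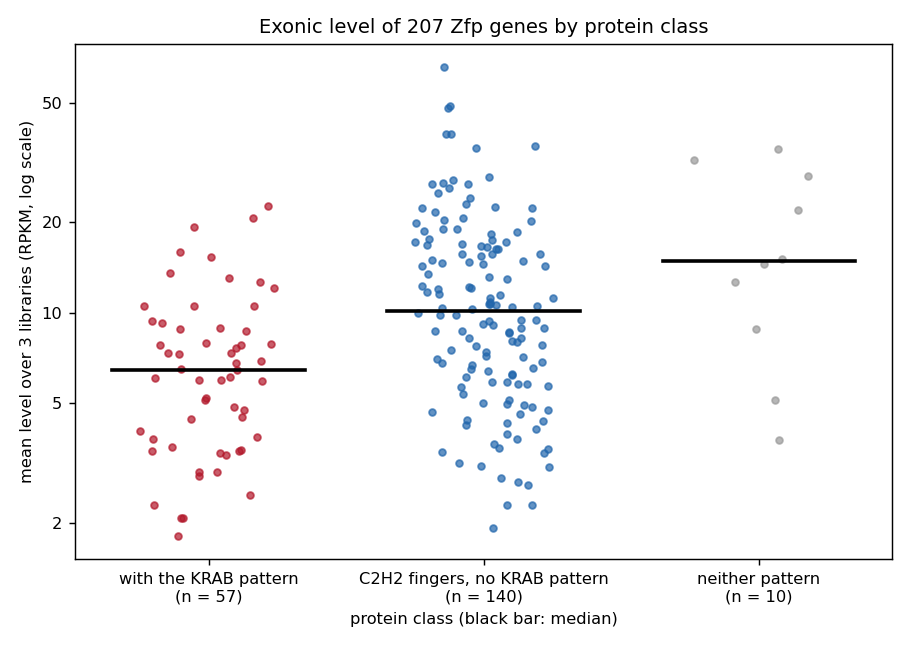
Exonic level of each of the 207 members, averaged over the 3 libraries, in RPKM on a log axis, by protein class, with the class median as a black bar. Medians stood at 6.46 RPKM with the KRAB pattern and 10.2 RPKM with C2H2 fingers and no KRAB pattern, and the highest member, Zfp207, reached 65.6 RPKM.

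The members with the most RNA per kilobase of exon varied little over time. Zfp207 (BuGZ), a microtubule and kinetochore protein, had 293, 298 and 378 exonic reads at 0, 1 and 6 h, and averaged 65.6 RPKM. Zfp428 came next with 97, 141 and 129 reads and 48.8 RPKM. Zfp644, which in human cells acts with the histone methyltransferases G9a and GLP, had 609, 748 and 601 reads and 48.2 RPKM, but its gene model overlaps another on the same strand. None of these 3 genes met the 2-fold limit in any exonic comparison. Zfp57 and Zfp445, which keep DNA methylation at imprinted genes, stood at 39.4 RPKM each. Zfp57 had 207, 226 and 179 reads at 0, 1 and 6 h. Zfp445 had 344, 446 and 343 reads. Levels of these 2 genes per kilobase thus lay near each other at every time. Zfp706, a short protein with 1 finger, averaged 35.9 RPKM and Zfp704 averaged 35.3 RPKM. Zfp704 had the most reads of any member, 1190, 1168 and 1112. Zfp650, Zfp364 and Zfp469 completed the 10 highest, with Zfp364 at 32.3 RPKM and Zfp469 at 28.4 RPKM.

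At the other end, the minimum of 20 reads decided membership for genes whose levels hardly differ. Just inside it lay Zfp184 with 20, 18 and 21 reads at 0, 1 and 6 h, Zfp593 with 16, 21 and 17, Zfp53 with 21, 15 and 9, Zfp93 with 20, 16 and 9, and Zfp809 with 20, 17 and 2. Just outside it lay Zfp105 with 19, 15 and 13 reads, Zfp109 with 19, 14 and 15, Zfp575 with 17, 19 and 10, Zfp759 with 10, 19 and 11, and Zfp817 with 10, 19 and 16. In all, 53 genes fell below the minimum, 9 of them with 0 exonic reads in every library, and the 53 together had 400, 368 and 305 reads at 0, 1 and 6 h. Of the members, 179 had at least 20 reads in each of the 3 libraries and 8 in a single library, which was the 0 h library for 5, the 1 h library for 1 and the 6 h library for 2. A member that passed through a single library had to be low in the others.

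The members together took a slightly smaller share of exonic RNA after KCl. Their exonic reads summed to 21907, 23082 and 22045 at 0, 1 and 6 h, which was 1.00%, 0.939% and 0.889% of all exonic reads, with intervals of 0.987 to 1.01%, 0.927 to 0.952% and 0.877 to 0.900%. Of all intronic reads they took 0.717%, 0.601% and 0.670% at 0, 1 and 6 h. Scaled, the exonic sum at 1 h was 0.940 times that at 0 h (0.922 to 0.957), and at 6 h it was 0.952 times that at 0 h (0.934 to 0.970). The scaled intronic sum was 0.961 times that at 0 h at 1 h (0.938 to 0.985) and 1.03 times at 6 h (1.01 to 1.06). Over all genes the scaled intronic sums were 1.15 and 1.11 times that at 0 h. Exon-intron boundary reads of members numbered 200, 199 and 223 at 0, 1 and 6 h. Scaled as introns, they were 1.35 times those at 0 h at 1 h (1.11 to 1.66) and 1.25 times at 6 h (1.03 to 1.52). Over all genes these ratios were 1.23 and 1.09. With near-equal counts at 0 and 1 h, the members' ratio at 1 h rests on the intronic scaling factors. Most members moved little: 124 of 207 kept their 3 scaled values within 1.5-fold of each other, and 178 met the 2-fold limit in no exonic comparison.

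The direction of these small differences leaned downward. The median log2 ratio of exonic reads over the 207 members was -0.13 at 1 h over 0 h, against 0.01 for all 10311 genes with the minimum. At 6 h over 0 h it was -0.16, against -0.00 for all genes. These comparisons share the 0 h library, so its own counting error enters both. At 6 h over 1 h, which leaves that library out, the median was -0.02 for members and 0.01 for all genes. Ratios below 0 on the log2 scale were seen in 133 members (64.3%) at 1 h and 131 (63.3%) at 6 h, against 49.2% and 50.1% of all genes. The library with the highest scaled value was that of 0 h for 103 members (49.8%), against 32.7% of all genes. The size and sign of the member medians depended on the scaling: by uniquely mapped reads the median of all genes moved up by 0.24 at 1 h and 0.15 at 6 h, and the member medians became 0.11 and -0.02. The member median lay 0.13 below that of all genes at 1 h and 0.16 below it at 6 h, a difference that a scaling factor cannot alter, since it shifts every gene alike.

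The medians lay lowest where reads were few, among members and among all genes. With 20 to 49 reads in their highest library, members had a median log2 ratio of -0.29 at 6 h over 0 h, against -0.16 for all genes in that range. With 50 or more but under 200 reads the medians were -0.11 for members and -0.05 for all genes. With 200 reads or more they were -0.04 for members and 0.12 for all genes.

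After 1 h of KCl no member was higher by the 2-fold limit and 4 of the 205 compared were lower. Over all genes 1.58% were higher and 1.43% lower, so the lower count of the members (1.95%) lay near the background. Zfp238 (now Zbtb18), a repressor needed for cortical neuron development in mice, had 35, 14 and 33 exonic reads at 0, 1 and 6 h. Its level was low at 1 h alone, 2.80-fold below 0 h (1.47 to 5.64), and at 6 h it was 2.50-fold above 1 h (1.30 to 5.06). Zfp518 had 100, 56 and 50 reads, with a ratio of 0.499 at 1 h over 0 h (0.353 to 0.700), at the very limit, and with DESeq2 size factors (0.503) or mapped reads (0.589) it no longer met it. Zfp35 had 39, 17 and 25 reads, 2.57-fold lower at 1 h (1.42 to 4.85). Zfp786 had 30, 12 and 3 reads, 2.80-fold lower at 1 h (1.39 to 6.01). Of these 4 genes, Zfp518 and Zfp786 were also below the limit at 6 h.

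After 6 h of KCl 6 members were higher and 18 lower of 206 compared. Over all genes 4.92% were higher and 5.42% lower, so the members stood at 2.91% and 8.74%. The balance depended on the scaling, with 9 higher and 12 lower by uniquely mapped reads, and 8 higher and 12 lower by the authors' coverage. The plot of levels by time gives 12 of these 24 genes.

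**Figure D2:**
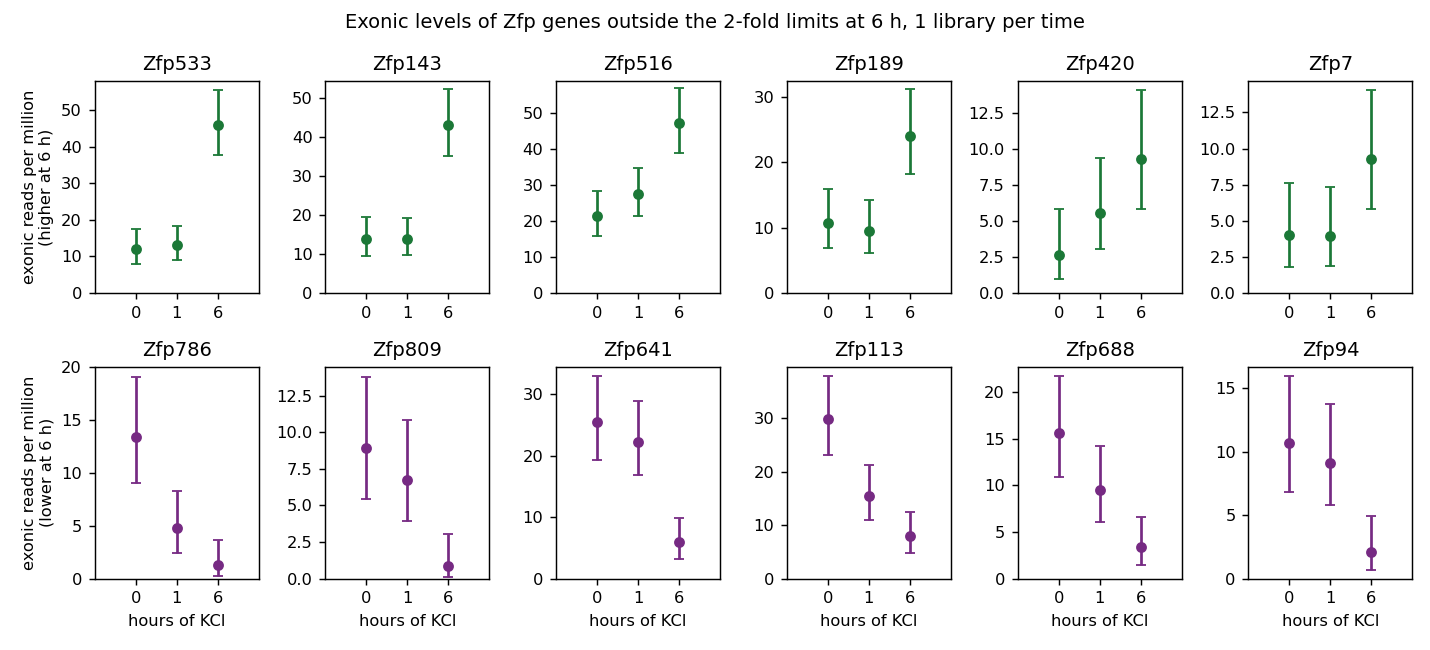
Scaled exonic reads in RPM at 0, 1 and 6 h of KCl for the 6 members higher at 6 h (top) and the 6 of 18 members lower at 6 h whose interval lay farthest from 1 (bottom), 1 library per time, with exact Poisson 95% intervals as bars. Zfp533 and Zfp143 stood at 46.0 and 43.0 RPM at 6 h, with no overlap of intervals with 0 h, while Zfp786 and Zfp809 stood at 1.27 and 0.844 RPM at 6 h.

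Of the 6 higher members, Zfp533 and Zfp143 had the intervals that lay farthest from 1. Zfp533 (now Zfp385b), of the Zfp385 family, had 27, 33 and 109 exonic reads at 0, 1 and 6 h. At 6 h it was 3.82-fold above 0 h (2.49 to 6.05), with 0 h and 1 h close together. Reads across its splice junctions, which come from processed RNA, numbered 2, 6 and 26. Zfp143, an activator that binds many promoters, including those of small nuclear RNA genes, had 31, 35 and 102 exonic reads. It was 3.11-fold higher at 6 h than at 0 h (2.06 to 4.81), and its junction reads numbered 6, 7 and 13. Both genes were thus high at 6 h alone. In the files Zfp143 lies at chr7:117205216-117238906 on mm9, + strand, and Zfp533 at chr2:77249157-77654873 on mm9, - strand.

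The other 4 had fewer reads or a smaller ratio. Zfp516, an activator of the thermogenic gene Ucp1 in mouse brown fat, had 48, 69 and 112 reads, 2.21-fold higher at 6 h (1.56 to 3.16), with 1 h between the other times. Zfp189, tied to stress resilience in the mouse prefrontal cortex, had 24, 24 and 57 reads, 2.25-fold higher (1.37 to 3.78). Zfp420 had 6, 14 and 22 reads, 3.47-fold higher (1.36 to 10.5). Zfp7 had 9, 10 and 22 reads, 2.31-fold higher (1.02 to 5.70). Zfp420 and Zfp7 had the minimum of reads at 6 h only, so they entered the group through the library where they are high. Zfp7 missed the limit with scaling by the exonic total.

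Of the 18 lower members, 11 carried the KRAB pattern and 7 had fingers without it. Their highest library held between 20 and 115 reads, with a median of 36.5, and for 16 of them the scaled value at 1 h lay between those at 6 h and 0 h. The interval farthest from 1 was that of Zfp786, a KRAB protein with 11 fingers. Its 30, 12 and 3 reads give a 10.6-fold lower value at 6 h than at 0 h (3.29 to 54.1). Zfp809, a KRAB protein that silences proviruses in mouse embryonic stem cells, had 20, 17 and 2 reads, 10.6-fold lower at 6 h (2.57 to 93.3). The wide intervals come from 3 and 2 reads at 6 h. Both genes had the minimum of reads at 0 h only, as did Zfp53 and Zfp93, so these 4 entered through the library where they are high.

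Others of the 18 were better covered. Zfp641 had 57, 56 and 14 reads at 0, 1 and 6 h, 4.31-fold lower at 6 h than at 0 h (2.37 to 8.37), with 0 h and 1 h close together. Zfp113, with the KRAB pattern, had 67, 39 and 19 reads, 3.73-fold lower (2.21 to 6.57). Zfp192 (now Zkscan8), with the most reads of the 18, had 115, 93 and 56 reads, 2.17-fold lower (1.56 to 3.04). Zfp641 and Zfp113 kept the limit under all 4 scalings, and Zfp192 missed it with scaling by mapped reads. Zfp688, Zfp94 and Zfp39, all with the KRAB pattern, had 35, 24 and 8 reads, 24, 23 and 5 reads, and 53, 38 and 20 reads. Their values at 6 h were 4.63-fold, 5.08-fold and 2.80-fold below those at 0 h. Zfp775 had 50, 52 and 17 reads, 3.11-fold lower (1.76 to 5.75). Zfp518 was 2.11-fold lower (1.49 to 3.03) and missed the limit with scaling by mapped reads, at a ratio of 0.524. The other 8 were Zfp777, Zfp161, Zfp647, Zfp661, Zfp213, Zfp3, Zfp53 and Zfp93, between 2.01-fold and 2.79-fold lower. Of these, Zfp161 (now Zbtb14) has 0.299 of its exon sequence mappable and Zfp3 overlaps a gene model on its strand, so their levels are uncertain.

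Between 1 h and 6 h, 6 members were higher and 9 lower at 6 h of 202 compared, against 4.17% and 4.63% of all genes, and the members stood at 2.97% and 4.46%. Zfp533 was 3.50-fold higher at 6 h than at 1 h (2.35 to 5.34) and Zfp143 was 3.09-fold higher (2.09 to 4.68). Zfp748, a KRAB protein with 23 fingers, had 45, 40 and 86 reads at 0, 1 and 6 h, 2.28-fold higher at 6 h than at 1 h (1.55 to 3.41). It overlaps another gene model on its strand. Zfp810, with the KRAB pattern, had 47, 99 and 40 reads. At 6 h it was 2.33-fold below 1 h (1.60 to 3.46), while at 1 h it was 1.88-fold above 0 h (1.31 to 2.72), short of the limit. Zfp641 was 3.77-fold lower at 6 h than at 1 h (2.07 to 7.34), Zfp775 2.88-fold lower and Zfp161 2.76-fold lower. Zfp94 was 4.34-fold lower (1.61 to 14.6).

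Split by protein class, 11 of the 18 members lower at 6 h had the KRAB pattern. Without members that had the minimum in a single library, it was 7 of 14. Of 57 members with the pattern 11 were lower and 1 higher at 6 h than at 0 h, with a median log2 ratio of -0.33. Over all genes 5.42% were lower and 4.92% higher. Of 139 compared with C2H2 fingers and no KRAB pattern, 7 were lower and 5 higher, with a median of -0.10. Of the 11 lower KRAB members 4 (Zfp786, Zfp809, Zfp53 and Zfp93) had the minimum of reads at 0 h only, and so entered through the library where they are high. Without members that had the minimum in a single library, 7 of 52 with the KRAB pattern were lower (13.5%) and none higher, with a median of -0.31. Without them, 7 of 137 with fingers alone were lower (5.11%), with a median of -0.11, and 4.73% of all genes were lower. None of the 10 members with neither pattern met the limit, and their median was 0.12. At 1 h over 0 h the medians were -0.23 with the KRAB pattern, -0.10 with fingers alone and -0.08 with neither. At 6 h over 1 h, without the 0 h library, they were -0.07, -0.02 and 0.03.

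**Figure D3:**
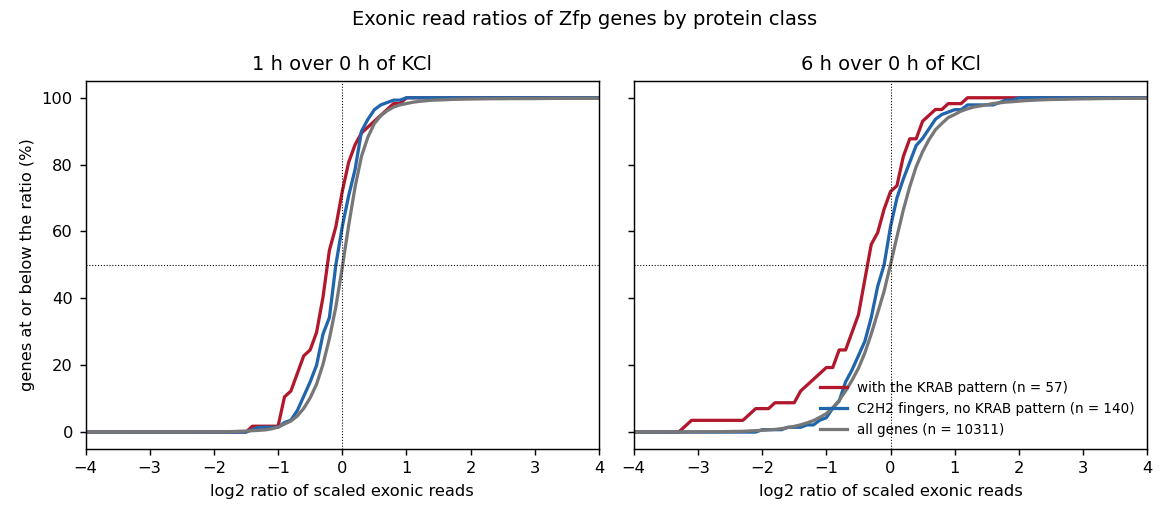
Cumulative share of genes (%) at or below each log2 ratio of scaled exonic reads (pseudocount 0.5 reads), at 1 h over 0 h (left) and 6 h over 0 h (right), for 57 members with the KRAB pattern, 140 with C2H2 fingers and no KRAB pattern, and 10311 genes in all. At 6 h the KRAB curve lies left of the others, with its median at -0.33 against -0.10 and -0.00. Its lowest genes, Zfp786 and Zfp809, had the minimum of reads at 0 h only, where they are high. Without members that had the minimum in a single library, the medians were -0.31 with the KRAB pattern and -0.11 with fingers alone.

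The classes also differed in how many of their members had few reads. Among members with 20 to 49 reads, 8 of 25 with the KRAB pattern were lower at 6 h (32.0%), against 3 of 34 with fingers alone (8.82%) and 14.2% of all genes in that range. The same 4 genes are among the 8, and without members that had the minimum in a single library 4 of 20 with the KRAB pattern were lower (20.0%), against 3 of 32 with fingers alone (9.38%) and 12.2% of all genes. Among members with 50 reads or more, 3 of 32 with the KRAB pattern were lower (9.38%), with a median of -0.24, against 4 of 105 with fingers alone (3.81%), with a median of -0.08, and 3.16% of all genes, with a median of 0.03. A looser KRAB pattern, which takes in Zfp57 and Zfp445, gave 68 members, 11 of them lower, with a median of -0.30. With that pattern and 50 reads or more, 3 of 40 were lower and the median was -0.15, against -0.06 for the 104 others. How much of the class difference is one of read depth was not tested.

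By position, 114 members lie within 500000 bp of another gene of the Zfp name, among them 47 of the 57 with the KRAB pattern. Members in such groups had a median log2 ratio of -0.14 at 6 h over 0 h and members on their own -0.16. Chromosome 7 alone carries 49 members, whose median was -0.14.

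Of 6 groups of neighbours with 5 or more members, one held 3 of the 18 lower genes. It spans chr6:47769265-48573226 on mm9 and has 8 members, with a median log2 ratio of -0.66 at 6 h over 0 h. Zfp786 lies at its first end, Zfp777 had 73, 42 and 36 reads at 0, 1 and 6 h, and Zfp775 lies at its other end. Of these 3, Zfp786 had the minimum of reads at 0 h only, and so entered through the library where it is high. At 6 h over 0 h 5.42% of all genes and 8.74% of all members were lower. Zfp398, next to Zfp786, had 108, 97 and 125 reads, and Zfp212 had 34, 45 and 42. Low values at 6 h were therefore not common to the whole stretch. On chromosome 7, 8 members between 134376957 and 135029510 (mm9) had a median of -0.68 at 1 h and -0.48 at 6 h, with Zfp688 the single gene past the limit at 6 h. The other 4 groups had medians at 6 h over 0 h between -0.16 and 0.17. One of them, 10 members on chromosome 7 between 24866963 and 26012526 (mm9), had a median of -0.14 and 2 lower genes, Zfp94 and Zfp93. The highest median was that of 9 members on chromosome 7 between 30553571 and 30954746 (mm9), where Zfp420 was higher and none lower. Zfp93 had the minimum of reads at 0 h only and Zfp420 at 6 h only, each the library where it is high. On chromosome 15 the neighbours Zfp7 and Zfp647 went opposite ways, with Zfp647 at 35, 20 and 14 reads and Zfp7 at 9, 10 and 22. On chromosome 9 the neighbours Zfp809 and Zfp810 lay at 10.6-fold and 1.24-fold below 0 h at 6 h, the second with an interval that includes 1.

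Intronic reads come largely from RNA that is not yet spliced, and the choice of members did not use them. With at least 20 intronic reads in 1 library, 139 members could be described. This minimum was set on the intronic reads themselves, so some introns entered only through the library where they are high. Those of Zfp192, Zfp53, Zfp385 and Zfp710 did so at 0 h, and those of Zfp184 at 1 h. At 1 h over 0 h, 7 of 134 were higher and 13 lower (5.22% and 9.70%), against 7.48% and 6.19% of all genes. These 1 h counts rest on the scaling: with exonic factors 1 was higher and 48 lower, and with mapped reads 2 and 31. At 6 h over 0 h, 5 of 138 were higher and 7 lower (3.62% and 5.07%), against 5.27% and 5.59% of all genes. At 6 h over 1 h, 8 of 125 were higher and 4 lower (6.40% and 3.20%), against 7.07% and 5.79%. Median log2 ratios of the members were -0.13 at 1 h over 0 h, -0.05 at 6 h over 0 h and 0.12 at 6 h over 1 h, against -0.04, 0.06 and 0.03 for all genes. Relative to all genes the member median at 6 h over 0 h was -0.11 on introns and -0.16 on exons.

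The 0 h library held more scattered antisense intronic reads than the others. Within members they numbered 496, 209 and 225 at 0, 1 and 6 h, or 3.26%, 1.94% and 1.60% of the sense intronic reads. Their part in the lower intronic values after 0 h was not tested beyond subtracting them, which left the lower counts of members within 1.5-fold. Exonic antisense reads of members numbered 156, 128 and 118.

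Among introns higher at 1 h, those of Zfp711, an X-linked gene mutated in human intellectual disability, had 71, 142 and 67 reads at 0, 1 and 6 h. The 1 h value was 2.72-fold above 0 h (2.03 to 3.67) and stood alone, while the exons of Zfp711 had 144, 187 and 200 reads. Introns of Zfp275 had 28, 47 and 47 reads, 2.28-fold higher at 1 h (1.40 to 3.79). Those of Zfp248 had 19, 35 and 20 reads, 2.51-fold higher at 1 h (1.40 to 4.64). Zfp61 introns had 7, 21 and 27 reads, 4.08-fold higher at 1 h (1.67 to 11.4) and 4.33-fold higher at 6 h (1.84 to 11.8), but this gene overlaps another model on its strand and its exons had 42, 29 and 36 reads. Zfp184 introns had 13, 22 and 7 reads, 2.30-fold higher at 1 h (1.11 to 4.98).

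Among introns lower at 1 h, those of Zfp192 had 24, 3 and 11 reads at 0, 1 and 6 h, 5.88-fold lower at 1 h than at 0 h (1.78 to 30.5). Zfp438 introns had 79, 21 and 23 reads, 2.76-fold lower (1.69 to 4.71), with 6, 0 and 1 antisense reads. Zfp592 introns had 80, 23 and 48 reads, 2.56-fold lower (1.59 to 4.26), and those of Zfp53 had 26, 6 and 18 reads, 3.18-fold lower (1.28 to 9.46). Zfp423, a partner of Ebf factors in brain development, had 78, 25 and 22 intronic reads with 30, 3 and 3 on the antisense strand. Its introns were 2.29-fold lower at 1 h (1.44 to 3.75), but with antisense reads subtracted the 1 h ratio was 0.624, outside the limit.

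At 6 h, introns of Zfp143 had 56 reads against 14 at 0 h and were 4.49-fold higher (2.46 to 8.73), the largest of the 5. Zfp263 introns had 17, 25 and 40 reads at 0, 1 and 6 h, 2.64-fold higher at 6 h (1.46 to 4.96). Zfp446 introns were 2.87-fold higher (1.28 to 7.04) and Zfp30 introns 2.31-fold higher (1.26 to 4.39). On the lower side, Zfp438 introns were 3.06-fold lower at 6 h (1.90 to 5.11) and Zfp423 introns 3.16-fold lower (1.95 to 5.33). Introns of Zfp760, Zfp385 and Zfp710 had 45, 23 and 17 reads, 41, 14 and 15 reads, and 41, 16 and 17 reads. The ratio of Zfp385 was 0.538 with antisense reads subtracted, outside the limit, and the others in this paragraph kept it.

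**Figure D4:**
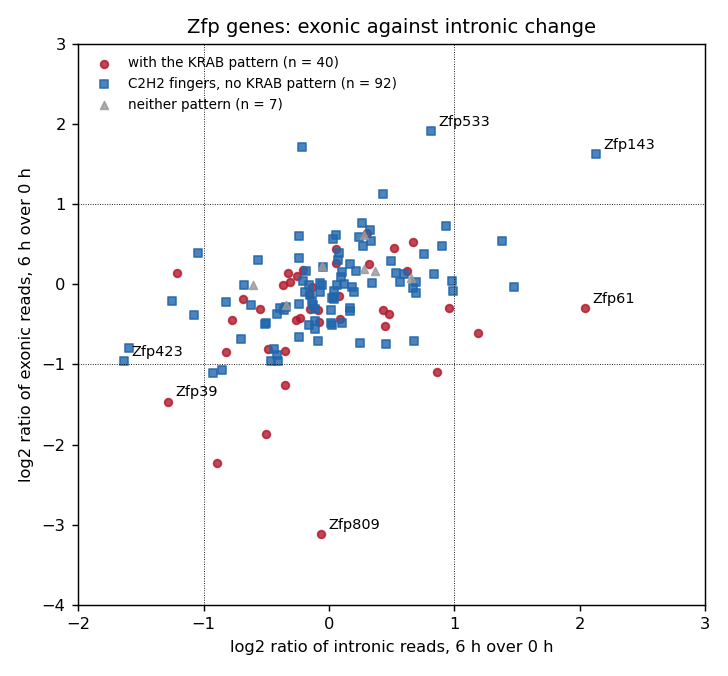
Log2 ratio at 6 h over 0 h of exonic reads (vertical) against intronic reads (horizontal) for the 139 members with at least 20 intronic reads in 1 library, by protein class, with dotted lines at a 2-fold change (pseudocount 0.5 reads). Zfp143 lies high on both axes and Zfp39 low on both, while Zfp809 lies low on exons with a ratio near 0 on introns.

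Exons and introns met the limit in the same direction in 3 genes. Zfp143 was higher on both at 6 h, whether set against 0 h or 1 h. Zfp39 was lower on both at 6 h than at 0 h, with intronic reads of 20, 5 and 7 at 0, 1 and 6 h. Zfp518 was lower on both at 1 h, with intronic reads of 37, 11 and 18. Introns of Zfp39 and Zfp518 had the minimum of 20 reads at 0 h only, and so entered through the library where they are high. Introns of Zfp533 had 846, 591 and 1325 reads, below the 2-fold limit at 6 h while its exons were past it. Introns of Zfp809 had 20, 21 and 17 reads beside the 20, 17 and 2 on its exons. Of the 18 members lower on exons at 6 h, 8 had enough intronic reads, and 7 of these had an intronic log2 ratio below 0. Of the 6 higher members, 4 had enough intronic reads and 3 had an intronic ratio above 0. The shares over all genes are not given here for these counts or for the 3 genes that met the limit on both. They are therefore description only. Across the 139 members the exonic and intronic log2 ratios at 6 h over 0 h had a Pearson r of 0.41 and a Spearman rho of 0.44, against 0.59 and 0.52 over 7623 genes. At 1 h over 0 h the members had an r of 0.11 and a rho of 0.11, against 0.32 and 0.18 over the same 7623 genes. At 6 h over 1 h they had 0.17 and 0.17, against 0.24 and 0.17. Each correlation runs across genes of the same 2 libraries, and genes are not independent replicates.

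Of 16 listed genes of the corepressor machinery, the partners of KRAB proteins, 13 had the minimum of exonic reads. On exons 1 of them (7.69%) was lower at 6 h than at 0 h and none was higher, against 5.42% and 4.92% of all genes, and their median log2 ratio was -0.04. On introns 1 of 15 was higher at 6 h than at 0 h and none lower, against 5.27% and 5.59% of all genes. The higher count thus lay near the background. Trim28 itself, the corepressor, had 641, 799 and 733 exonic reads at 0, 1 and 6 h, a 1.08-fold ratio at 6 h over 0 h (0.971 to 1.20). Its introns had 14, 19 and 26 reads, 2.08-fold higher at 6 h (1.05 to 4.32). Prkcbp1 (now Zmynd8), a chromatin reader, was the gene past the limit, with 276, 263 and 122 exonic reads, 2.39-fold lower at 6 h (1.93 to 2.99).

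Other C2H2 families also had medians below 0. Of 39 Zbtb, Zkscan, Zscan and similar genes with the minimum, 1 was higher and 3 lower at 6 h than at 0 h, with a median log2 ratio of -0.26. At 1 h over 0 h 2 were lower, with a median of -0.22. Both medians lay below those of the Zfp members, which were -0.16 at 6 h and -0.13 at 1 h. Over all genes 4.92% were higher and 5.42% lower at 6 h, so on 39 genes the 6 h counts lay near the background. At 1 h 1.43% of all genes were lower, and the share here was above that but rests on 2 genes. Zbtb40 had 50, 47 and 167 exonic reads, 3.16-fold higher at 6 h (2.29 to 4.42), with introns 3.54-fold higher (2.25 to 5.73). Zbtb25 had 54, 51 and 18 reads, 3.17-fold lower at 6 h (1.83 to 5.75). Zkscan5 had 84, 87 and 34 reads, 2.61-fold lower (1.73 to 4.01), and Zbtb2 had 21, 22 and 10 reads, 2.22-fold lower (1.00 to 5.28). At 1 h, Zbtb37 had 61 reads against 130 at 0 h and was 2.39-fold lower (1.75 to 3.29), and Zkscan14 had 13 reads against 25 and was 2.16-fold lower (1.06 to 4.59). Introns of Zbtb11 had 81, 250 and 97 reads at 0, 1 and 6 h, 4.20-fold higher at 1 h (3.26 to 5.47).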

How the data were processed

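RNA from 3 cultures of MGE-derived neurons (0, 1 and 6 h of 55 mM KCl) was sequenced, 1 library per time. The deposited counts are whole reads per gene, by strand, for exons, introns, junctions and 500 bp flanks; per the deposited logs, 35 bp reads with at most 3 mismatches that mapped uniquely were kept, copies included. The build is mm9 in the submitters' processing notes; no aligner is named in those notes or the logs. The authors' coverage signal per gene, scaled to 10000000 mapped reads, served as an alternative only.

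Counts were scaled with TMM factors (edgeR 4.0.16, R 4.3.3), fitted to exons and introns apart over all genes. Ratios have exact Clopper-Pearson 95% intervals from the split of reads (scipy 1.17.1, Python 3.11.15), and log2 ratios a pseudocount of 0.5 reads. The rule was tested on simulated data. Protein classes came from patterns in translated GENCODE M21 coding sequences: C-x(2,4)-C-x(12)-H-x(3,5)-H for a finger, and for KRAB F-x-D-[VIL] followed by L-Y-x(2)-V-[MT]. Gene IDs of all 207 members matched the RefSeq table, used for current symbols. Reads mapping to several places were dropped, so near-identical genes are undercounted: 6 members are under 0.5 mappable, and 9 overlap a gene model on the same strand.

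Members and lists were chosen with earlier results of these data known. Genes are named if past the limit and ranked by the bound nearest to 1 (10 higher and 10 lower at 1 and 6 h, 5 and 5 between 1 and 6 h, 5 and 5 on introns), if among the 10 highest levels, or if next to the read minimum. Neighbours, and genes named for their position or class, were chosen after their values were seen. Alternatives were DESeq2 1.42.0 size factors, other totals, read minimums and pseudocounts.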

Additional observations from a re-analysis of the deposited data

Results flagged for a closer look

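Sense reads in the 500 bp downstream of the gene, which the comparisons do not use, exceeded those of the unstimulated library in 3 members by the same 2-fold limit. Only 5 members at 1 h and 6 at 6 h had enough such reads to compare, and 2 were higher at each time, against 4.19% of 716 genes at 1 h and 13.3% of 745 at 6 h. Downstream of Zfp251 there were 25 reads at 1 h and 37 at 6 h, against 8 at 0 h. Downstream of Zfp146 there were 23 reads at 6 h, against 5 at 0 h. Downstream of Zfp148 there were 27 reads at 1 h, against 11 at 0 h.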

How the results depend on the processing

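No paired analysis was possible because each time has 1 library, and for the same reason no library could be left out. DESeq2 size factors, total exonic reads, no read minimum, a pseudocount of 5 reads and the omission of same-strand overlaps kept the member counts and medians near the main values, except that total exonic reads gave 14 members lower at 6 h over 1 h and a median of -0.12. Uniquely mapped reads reversed the exonic median at 1 h over 0 h to 0.11, moved it to -0.015 at 6 h over 0 h and -0.11 at 6 h over 1 h, and gave 2 members higher at 1 h and 14 lower at 6 h over 1 h, as did the authors' coverage. A minimum of 50 reads left 1 exonic member lower at 1 h, 7 at 6 h over 0 h and 3 at 6 h over 1 h, and 3 KRAB members lower at 6 h. On introns that minimum left 1 higher and 3 lower at 1 h, 1 and 2 at 6 h over 0 h, and 3 and 2 at 6 h over 1 h. Intronic values rest most on the scaling. With exonic factors 1 was higher and 48 lower at 1 h, 13 lower at 6 h over 0 h, and 24 higher and 1 lower at 6 h over 1 h, with medians of -0.74, -0.30 and 0.49. With mapped reads these were 2 and 31 at 1 h and 20 and 2 at 6 h over 1 h, with medians of -0.51, -0.15 and 0.40. Subtracting antisense reads, an alternative chosen after seeing the data, gave 8 introns higher at 6 h. Without members that had the minimum of reads in a single library, also chosen after seeing the data, 7 KRAB members were lower at 6 h. The class comparisons, the looser KRAB pattern and the split by reads were also added after seeing the data. Of 90 exonic ratios of named genes under 3 other scalings, 85 kept the limit and 5 lost it; of 20 intronic ratios with antisense reads subtracted, 18 kept it. Depth limits every gene with few reads: Zfp93, with 9 exonic reads at 6 h against 20 at 0 h, has an upper bound of 0.978.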
